A study of Mus musculus with 7 samples.

Results

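The 28 genes described here carry the main steps by which a mouse cell makes, senses, stores and exports cholesterol, read in the RNA of whole femurs after a distant brain injury. They were taken by name from a table of 49671 genes, with earlier results of these data known. All 28 were among the 17144 genes with enough counts to be tested. By role, 7 act in the mevalonate pathway, 11 turn its product into cholesterol, 5 sense or regulate sterols, and 5 act in efflux, storage and uptake. There were 4 TBI libraries, from wild-type mice with a traumatic brain injury made by controlled cortical impact (a driven tip is pressed into the cortex) and taken at day 3, and 3 control libraries, from wild-type uninjured mice. The labels give no strain, sex or age, and leave unsaid whether controls had any surgery and whether libraries are separate mice; the p-values therefore reflect the spread among these libraries, which may be technical.

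Cells build cholesterol from acetyl units through mevalonate, isoprenoids, squalene and lanosterol, in a chain of enzymes of the cytosol and endoplasmic reticulum. When membrane sterol falls, the escort protein SCAP carries the transcription factor SREBP-2 to the Golgi, where it is cut free and switches on nearly the whole chain, while the INSIG proteins hold it back when sterol is plentiful. When sterol is in excess, oxysterols activate the liver X receptors, which switch on the exporters ABCA1 and ABCG1. In bone, the isoprenoid arm is known as the target of nitrogen-containing bisphosphonates, which block the enzyme encoded by Fdps in osteoclasts.

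No difference was detected between TBI and control femurs in any of the cholesterol genes. By the quasi-likelihood test of edgeR, 0 of the 28 passed an adjusted p of 0.05, where 0 of the 17144 genes did (0%). Also 0 had an unadjusted p under 0.05, against 7.34% of all genes tested, 2.37% higher and 4.97% lower in TBI. Without control 2 that background was 592 of 17600 genes, in place of 1259 of 17144, and still 0 of the 28. DESeq2 and limma-voom also called 0 of the 28, while over all genes DESeq2 called 84 (0.568%) and limma-voom 0. In all 28 the CPM values of the TBI and control libraries overlapped, and the groups did not overlap for 8.04% of the genes tested. Such shares amount to only a few genes in 28, so these counts of 0 do not set the 28 apart from other genes. CPM (the usual per-library abundance, counts divided by library size) was scaled by TMM so that libraries of different make-up can be compared. The log2 fold changes, TBI over control, ran from −0.23 (Fdps) to 0.32 (Soat1), with 16 genes higher and 12 lower in TBI, and 54.4% of all genes tested had a higher estimate. Their median was 0.015, beside 0.026 over all genes tested. In 8 of the 28 genes the sign was the same under all 16 alternative settings, and in 16 it changed when a single library was left out.

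A p that misses the threshold does not show that levels were alike. With known differences built into simulated counts, edgeR found 0 of 65 genes at 1.5-fold and 17 of 66 at 2-fold, as did limma-voom. A count of 0 in these tests therefore says little about differences of 2-fold or less. The interval of each difference bears instead on how large a change could have gone unseen. The 95% interval lay inside a 2-fold change in either direction for all 28 genes, against 68.7% of the genes tested. It lay inside a 1.5-fold change for 19 of the 28, against 40.9% of the genes tested.

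**Figure D1:**
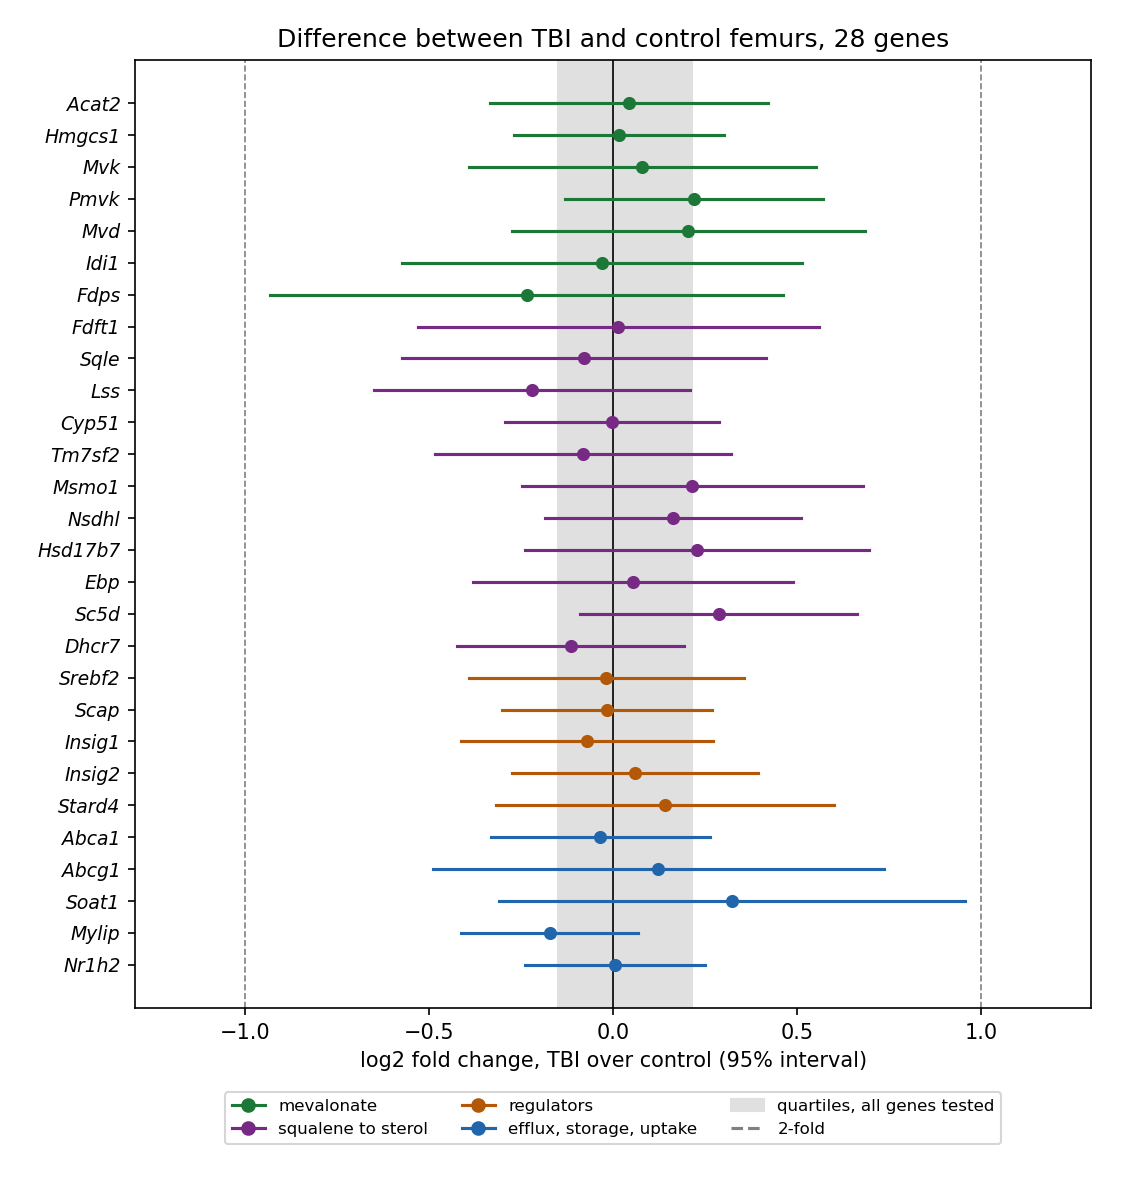
Log2 fold change of each cholesterol gene, TBI over control, with its 95% interval; colours mark the roles, the grey band spans the quartiles over all genes tested, and dashed lines mark a 2-fold change. Every interval crosses 0 and stays inside the dashed lines, with the widest intervals at Fdps and Soat1.

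Markers of the cell types a femur holds varied between the libraries. The summed level of 12 bone and cartilage markers was 7585 to 10067 CPM in TBI libraries against 11369 to 18343 CPM in controls, and all 12 had lower estimates (median −0.74 on the log2 scale); 10 of the 12 lay lower in every TBI library than in any control, against 5.38% of the genes tested. Erythroid markers summed to 23166 to 32534 CPM in TBI and 44661 to 51396 CPM in control libraries. Skeletal muscle markers took 19166 to 100819 CPM in TBI and 16013 to 55119 CPM in control libraries, neutrophil markers 1497 to 8545 CPM in TBI and 2108 to 3410 CPM in controls, and B-cell markers 33.6 to 158.1 CPM in TBI and 129.5 to 217.9 CPM in controls. Macrophage markers summed to 126.1 to 202.0 CPM in TBI and 138.5 to 170.4 CPM in control libraries, adipocyte markers to 343.4 to 855.1 CPM in TBI and 300.8 to 497.4 CPM in controls, and proliferation markers to 2414 to 3463 CPM in TBI and 2870 to 3708 CPM in controls. No marker on these lists was at 0 counts in any library. Muscle markers are set against the genes below, and fits with the muscle or the skeletal list as a covariate are given there; the part of the other cell types was not tested. In a whole bone, fewer cells of a type and less RNA per cell cannot be told apart. Total counts were 20470241 to 21783534 in TBI and 15461528 to 20675655 in control libraries, and the 28 genes had 17 to 2082 counts in a library.

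Set per kilobase of annotated exon, the most abundant of the 28 mRNAs were not those of synthesis enzymes. Nr1h2, which encodes the widely expressed liver X receptor beta, stood at 22.2 CPM per kb in both TBI and control femurs. Mylip, whose product marks lipoprotein receptors for degradation, was next at 17.2 CPM per kb in TBI and 19.4 in control femurs. Insig2 followed at 11.7 in TBI and 11.2 CPM per kb in controls, Srebf2 at 10.7 in TBI and 10.9 in controls, and Fdft1, the highest of the synthesis enzymes, at 10.7 in TBI and 10.6 in controls. Pmvk (10.6 in TBI and 9.07 CPM per kb in controls) stood just below. Fdps was lowest, at 0.29 CPM per kb in TBI and 0.343 in controls.

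**Figure D2:**
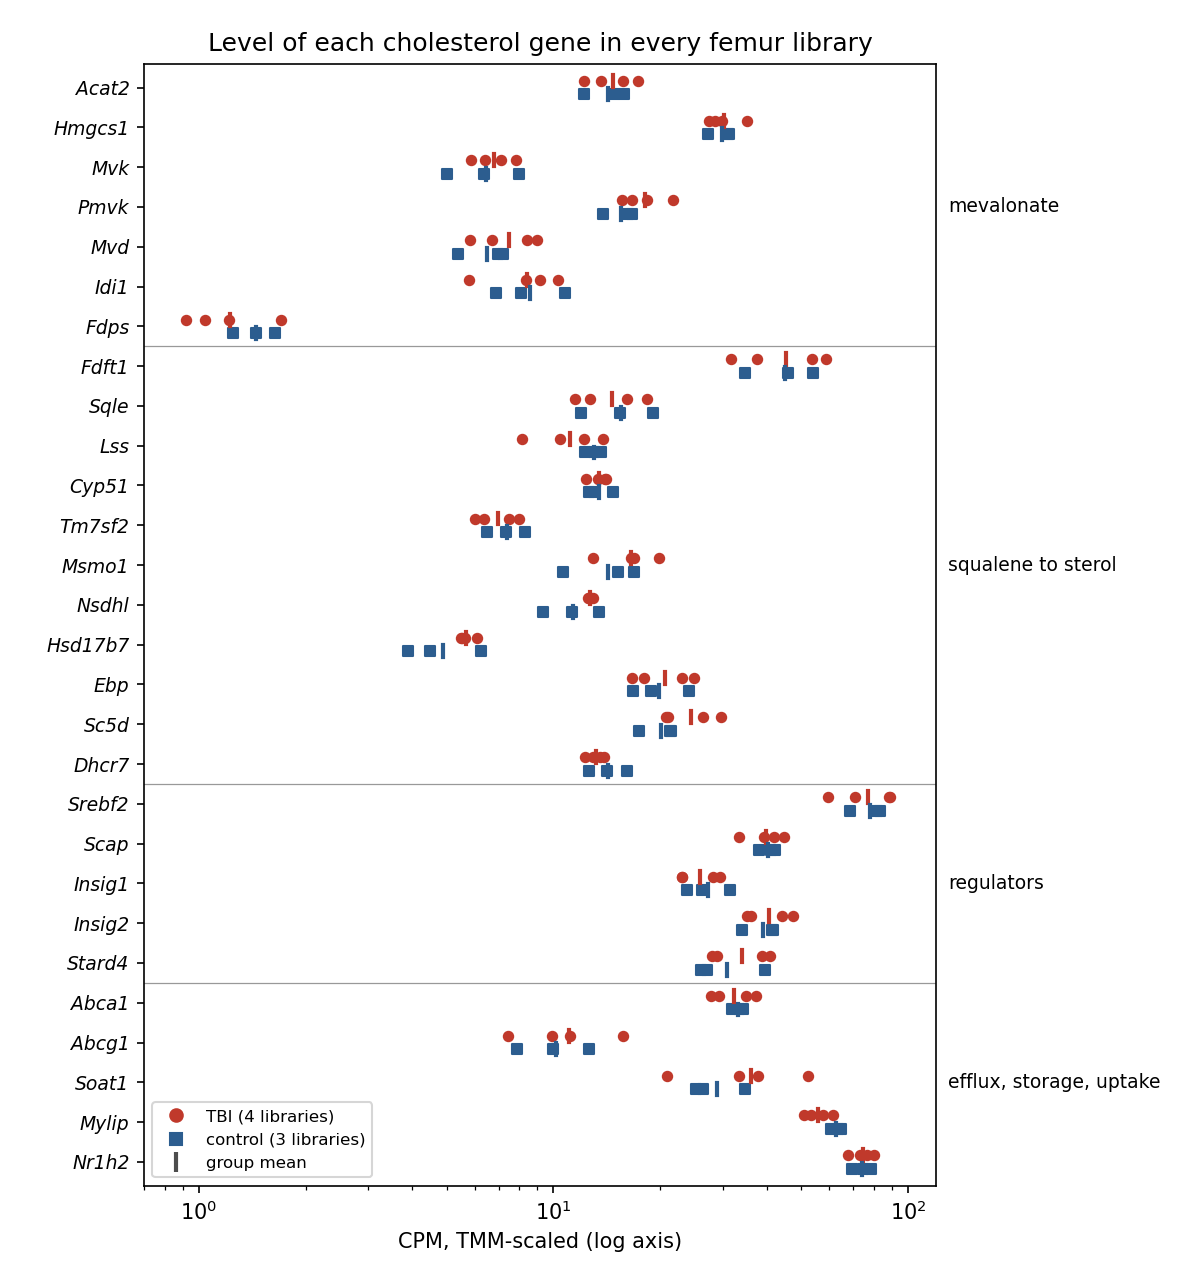
CPM (log axis) of each of the 28 genes in every library, with TBI libraries as circles above and control libraries as squares below, and a bar at each group mean. The TBI and control points overlap for every gene, and Fdps lies apart near 1 CPM.

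Promoter sequences bear on how such genes can move as a set. A window of 300 bases, 250 before and 50 after the start site, was at hand for 23 of the 28 genes in RefSeq sequence of build GRCm38.p6; Fdps, Fdft1, Sqle, Stard4 and Abcg1 had none. The motifs were searched on both strands. The sterol regulatory element that SREBP proteins bind, searched as TCACNCCAC, lay in 1 of the 23 genes (4.35%) against 1.44% of all 27025 genes with a window, predicted and noncoding genes included. The CCAAT box, bound by NF-Y, a usual partner of SREBP, lay in 19 of the 23 (82.6%) against 41.1% of all genes, and the Sp1 box GGGCGG in 21 (91.3%) against 38.2%. A match is a description of these letters, and no match says nothing of binding. The windows of Hmgcs1 (chr13:119690101-119690400, plus strand, the only one with the sterol element), Srebf2 (chr15:82147019-82147318, plus strand), Insig1 (chr5:28071162-28071461, plus strand) and Sc5d (chr9:42264251-42264550, minus strand) are shown 5′ to 3′ along each gene, as examples of an early enzyme, the gene of SREBP-2 itself, its brake and a late enzyme. Capitals mark the sterol element and the CCAAT boxes, which all lie on the other strand here and so read ATTGG.
Hmgcs1: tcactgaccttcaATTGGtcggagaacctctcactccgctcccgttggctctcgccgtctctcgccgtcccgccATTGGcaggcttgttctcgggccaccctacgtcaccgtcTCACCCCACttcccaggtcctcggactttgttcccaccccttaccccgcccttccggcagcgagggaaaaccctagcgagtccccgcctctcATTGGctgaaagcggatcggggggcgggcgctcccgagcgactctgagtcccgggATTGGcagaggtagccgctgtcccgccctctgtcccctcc
Srebf2: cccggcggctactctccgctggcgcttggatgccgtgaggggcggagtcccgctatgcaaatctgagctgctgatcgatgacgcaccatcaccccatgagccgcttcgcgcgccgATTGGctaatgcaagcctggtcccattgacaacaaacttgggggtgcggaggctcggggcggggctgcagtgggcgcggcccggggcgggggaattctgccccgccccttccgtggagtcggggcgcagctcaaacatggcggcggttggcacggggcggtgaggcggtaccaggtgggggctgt
Insig1: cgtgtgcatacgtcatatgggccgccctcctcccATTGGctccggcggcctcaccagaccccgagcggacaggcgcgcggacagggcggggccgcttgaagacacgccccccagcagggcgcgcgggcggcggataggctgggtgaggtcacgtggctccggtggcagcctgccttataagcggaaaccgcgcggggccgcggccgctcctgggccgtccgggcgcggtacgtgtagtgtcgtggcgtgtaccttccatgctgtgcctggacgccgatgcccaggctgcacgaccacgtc
Sc5d: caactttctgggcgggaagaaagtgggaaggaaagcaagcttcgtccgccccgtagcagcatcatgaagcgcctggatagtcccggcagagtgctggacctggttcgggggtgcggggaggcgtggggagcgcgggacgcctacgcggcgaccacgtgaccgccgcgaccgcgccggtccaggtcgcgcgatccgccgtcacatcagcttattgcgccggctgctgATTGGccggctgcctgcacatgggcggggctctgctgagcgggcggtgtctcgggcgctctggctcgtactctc
In Hmgcs1 the sterol element began 137 bases before the start site (position -137), and 4 CCAAT boxes lay in the window. Srebf2, Insig1 and Sc5d each held 1 CCAAT box, and 5, 3 and 4 Sp1 boxes, beside 3 in Hmgcs1.

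None of the mevalonate enzymes passed the test. Of the 7, 5 had a higher and 2 a lower estimate in TBI (median 0.043 on the log2 scale). Acat2 (log2 fold change 0.04), which joins the first acetyl units in the cytosol, had 12.2 to 17.3 CPM in TBI and 12.2 to 15.8 CPM in control libraries. Hmgcs1, the synthase that makes HMG-CoA and a sensitive SREBP-2 target (chromosome 13, 119690379 to 119708260, plus strand), had 27.4, 28.6, 29.8 and 35.1 CPM in TBI 1 to 4, against 31.1, 31.3 and 27.3 CPM in controls 1 to 3. TBI 4 was highest and TBI 1 sat beside the lowest control, so the groups overlapped throughout. Its mean was 30.2 ± 3.42 CPM in TBI (SD, n = 4) and 29.9 ± 2.29 CPM in controls (SD, n = 3), a log2 fold change of 0.02 ± 0.13 (SE; edgeR adjusted p = 0.978).

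The next enzymes phosphorylate mevalonate and cut it to the 5-carbon isoprenoid. Mvk, mevalonate kinase, ranged from 5.86 to 7.83 CPM in TBI and 5.01 to 8.01 CPM in controls (log2 fold change 0.08). Pmvk, phosphomevalonate kinase, had 15.6, 21.7, 16.6 and 18.4 CPM in TBI 1 to 4, against 16.2, 16.6 and 13.8 CPM in controls 1 to 3. TBI 2 and TBI 4 lay above all controls, TBI 3 level with the highest of them and TBI 1 among them. The log2 fold change of Pmvk was 0.22 ± 0.15 (SE; 95% interval −0.13 to 0.57; edgeR adjusted p = 0.763). Mvd, the decarboxylase that makes isopentenyl diphosphate, had 5.82, 8.43, 6.72 and 9.01 CPM in TBI 1 to 4, against 5.37, 7.19 and 6.99 CPM in controls 1 to 3. Again TBI 2 and TBI 4 were above all controls, and the value was 0.20 ± 0.21 on the log2 scale (SE; edgeR adjusted p = 0.802).

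Idi1, the isomerase that readies isopentenyl diphosphate for joining, ranged from 5.80 to 10.3 CPM in TBI and 6.87 to 10.8 CPM in controls (log2 fold change −0.03). Fdps, farnesyl diphosphate synthase, had 1.04, 1.70, 0.922 and 1.21 CPM in TBI 1 to 4, against 1.44, 1.64 and 1.25 CPM in controls 1 to 3. These rest on 17 to 40 counts a library, and the log2 fold change of −0.23 ± 0.31 (SE) had a 95% interval of −0.93 to 0.46. The annotation places the predicted coding gene Gm43738 over Fdps on the same strand, and that gene was listed with 0 counts in every library. The sources used here do not give how reads in both genes were counted, so the level of Fdps is uncertain.

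Of the 11 enzymes from squalene to cholesterol, none passed either, and 6 had a higher and 5 a lower estimate (median 0.014 on the log2 scale). Fdft1, squalene synthase and the first step committed to sterols, ranged widely in both groups, from 31.7 to 58.5 CPM in TBI and 34.8 to 54.0 CPM in controls (log2 fold change 0.01). It overlaps Ctsb on the opposite strand, which had 10108 to 15029 counts a library against 727 to 1111 for Fdft1; the sources used here do not say whether counting used strand. Sqle, squalene epoxidase, an oxygen-dependent control point of the pathway, had 16.1, 18.3, 12.7 and 11.5 CPM in TBI 1 to 4, against 19.1, 15.4 and 11.9 CPM in controls 1 to 3. The lowest and highest values of Sqle were a TBI and a control library. Its log2 fold change was −0.08 ± 0.22 (SE; edgeR adjusted p = 0.932).

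Lss, lanosterol synthase, which folds the squalene chain into the first sterol, had 12.2, 10.4, 8.13 and 13.8 CPM in TBI 1 to 4, against 13.0, 13.6 and 12.3 CPM in controls 1 to 3. TBI 1, TBI 2 and TBI 3 lay below the controls, TBI 1 only just, and TBI 4 above them all. Its log2 fold change was −0.22 ± 0.19 (SE; 95% interval −0.65 to 0.21; edgeR adjusted p = 0.773). Cyp51, the demethylase that azole drugs inhibit in fungi, was among the steadiest of the 28, at 13.4 ± 0.786 CPM in TBI (SD, n = 4) and 13.5 ± 1.11 CPM in controls (SD, n = 3). Its log2 fold change was −0.0025, and it overlaps Akap9 on the opposite strand. Tm7sf2, a sterol C14 reductase, ranged from 6.02 to 7.99 CPM in TBI and 6.499 to 8.32 CPM in controls (log2 fold change −0.08), and it overlaps Vps51 on the same strand.

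The C4 demethylation complex, made by Msmo1, Nsdhl and Hsd17b7, had the higher estimate in TBI for each of its 3 genes, and none passed. Msmo1, the methyl sterol oxidase, had 16.9, 19.8, 12.9 and 16.5 CPM in TBI 1 to 4, against 16.9, 15.2 and 10.6 CPM in controls 1 to 3. The value of 0.22 ± 0.20 on the log2 scale (SE; edgeR adjusted p = 0.788) came with the lowest TBI library below 2 of the 3 controls. Nsdhl, the decarboxylating dehydrogenase of the complex, had 12.8, 12.6, 12.6 and 12.9 CPM in TBI 1 to 4, against 13.4, 11.3 and 9.33 CPM in controls 1 to 3. The TBI libraries were nearly identical and all lay between the highest and the middle control (log2 fold change 0.16 ± 0.15, SE; edgeR adjusted p = 0.787). Hsd17b7, the keto-sterol reductase, had 6.08, 5.53, 5.48 and 5.64 CPM in TBI 1 to 4, against 3.88, 6.24 and 4.48 CPM in controls 1 to 3. Control 2 lay above every TBI library and the other two controls below every one (log2 fold change 0.23 ± 0.20, SE; edgeR adjusted p = 0.776).

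Of the last enzymes of the chain, Sc5d stood nearest to a difference. Sc5d, the C5 desaturase (chromosome 9, 42251595 to 42264256, minus strand), had 20.8, 21.1, 26.4 and 29.8 CPM in TBI 1 to 4, against 17.5, 21.4 and 21.4 CPM in controls 1 to 3. TBI 3 and TBI 4 were above all controls, and TBI 1 and TBI 2 lay just below 2 of them. The mean was 24.5 ± 4.35 CPM in TBI (SD, n = 4) and 20.1 ± 2.27 CPM in controls (SD, n = 3). The log2 fold change was 0.29 ± 0.17 (SE; 95% interval −0.09 to 0.66) with an unadjusted p of 0.118 in edgeR, the smallest of the 28, and an adjusted p of 0.747. Ebp, the sterol isomerase that also binds emopamil, ranged from 16.6 to 24.99 CPM in TBI and 16.7 to 24.1 CPM in controls (log2 fold change 0.05). Dhcr7, the reductase at the branch between cholesterol and vitamin D precursors, had 12.3, 13.9, 13.6 and 13.0 CPM in TBI 1 to 4, against 12.6, 14.1 and 16.1 CPM in controls 1 to 3. All TBI libraries of Dhcr7 lay below the 2 highest controls, with a log2 fold change of −0.12 ± 0.14 (SE; edgeR adjusted p = 0.824).

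Of the 5 regulators, none passed, and 2 had a higher and 3 a lower estimate (median −0.017 on the log2 scale). Srebf2, which encodes SREBP-2 and holds the microRNA gene Mir33 within it (chromosome 15, 82147181 to 82205379, plus strand), had 89.0, 88.6, 70.9 and 59.7 CPM in TBI 1 to 4, against 82.0, 83.4 and 68.8 CPM in controls 1 to 3. The highest and the lowest library were both TBI. Its mean was 77.0 ± 14.3 CPM in TBI (SD, n = 4) and 78.1 ± 8.09 CPM in controls (SD, n = 3), a log2 fold change of −0.02 ± 0.16 (SE; 95% interval −0.39 to 0.36; edgeR adjusted p = 0.981). Scap, the sterol-sensing escort, ranged from 33.4 to 44.8 CPM in TBI and 37.9 to 42.1 CPM in controls (log2 fold change −0.02).

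Insig1, a brake on SREBP when sterol is plentiful and itself an SREBP target, had 23.0, 28.1, 29.5 and 23.0 CPM in TBI 1 to 4, against 23.7, 31.6 and 26.3 CPM in controls 1 to 3. TBI 1 and TBI 4 sat just below the lowest control and the other two among the controls. The log2 fold change was −0.07 ± 0.15 (SE; 95% interval −0.41 to 0.27; edgeR adjusted p = 0.910). Insig2, the form that does not need SREBP for its expression, ranged from 35.1 to 47.4 CPM in TBI and 34.0 to 41.7 CPM in controls (log2 fold change 0.06). Stard4, a carrier of cholesterol between membranes, ranged from 27.9 to 40.7 CPM in TBI and 26.1 to 39.5 CPM in controls (log2 fold change 0.14).

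Of the 5 efflux, storage and uptake genes, none passed, and 3 had a higher and 2 a lower estimate (median 0.0051 on the log2 scale). Abca1, which loads cholesterol onto lipid-poor apolipoprotein, had 29.4, 27.9, 35.03 and 37.3 CPM in TBI 1 to 4, against 33.3, 34.2 and 32.0 CPM in controls 1 to 3. Its TBI values lay on both sides of a narrow control range, with a log2 fold change of −0.03 ± 0.13 (SE; 95% interval −0.33 to 0.26; edgeR adjusted p = 0.953). Abcg1, which exports sterol to mature lipoprotein particles, had 15.7, 11.2, 7.43 and 9.91 CPM in TBI 1 to 4, against 12.6, 9.96 and 7.87 CPM in controls 1 to 3. TBI 1 was highest and TBI 3 lowest of all 7 libraries (log2 fold change 0.12 ± 0.27, SE; edgeR adjusted p = 0.914).

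Soat1, which esterifies cholesterol for storage in droplets, had the highest fold change of the 28 and also the widest spread. It had 52.4, 37.8, 20.9 and 33.3 CPM in TBI 1 to 4, against 34.8, 25.3 and 26.5 CPM in controls 1 to 3. TBI 1 and TBI 2 lay above all controls and TBI 3 below them all. Its mean was 36.1 ± 13.0 CPM in TBI (SD, n = 4) and 28.9 ± 5.18 CPM in controls (SD, n = 3), a log2 fold change of 0.32 ± 0.28 (SE; 95% interval −0.31 to 0.96; edgeR adjusted p = 0.773). Without TBI 3 it was 0.51 (unadjusted p = 0.0372; edgeR adjusted p = 0.527), and without TBI 1 0.0893. In the fit without TBI 3, 1527 of 17008 genes had an unadjusted p under 0.05. The neutrophil marker sum was also highest in TBI 1, at 8545 CPM, and lowest in TBI 3, at 1497 CPM. The macrophage marker sum had the same highest and lowest library, at 202.0 and 126.1 CPM. The part of either cell type in the Soat1 value was not tested.

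Mylip and Nr1h2 had narrow ranges. Mylip, a liver X receptor target, had 57.5, 53.2, 61.3 and 51.0 CPM in TBI 1 to 4, against 63.3, 60.5 and 64.6 CPM in controls 1 to 3. TBI 3 sat just above the lowest control, and the other TBI libraries were below all controls. The mean was 55.7 ± 4.61 CPM in TBI (SD, n = 4) and 62.8 ± 2.08 CPM in controls (SD, n = 3), a log2 fold change of −0.17 ± 0.11 (SE; 95% interval −0.41 to 0.07; edgeR adjusted p = 0.760). Nr1h2 ranged from 67.9 to 80.4 CPM in TBI and 69.6 to 78.6 CPM in controls, with a log2 fold change of 0.0051.

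The ratio of the highest to the lowest library had a median of 1.53 over the 28 genes, from 1.18 in Nr1h2 to 2.51 in Soat1, beside a median of 1.75 over all genes tested. Muscle mRNA was highest in TBI 3 and TBI 4 and lowest in control 1 and TBI 1, and a few of the 28 genes followed it, at about the share of all genes: r was at least 0.9 for 3 of the 28 (10.7%) and for 9.72% of 17067 genes with counts in every library, and at most −0.9 for 0 of the 28 (0%) and for 2.1% of those genes. Over the 7 libraries, log2 CPM was set against the log2 of the muscle marker sum for each of the 28 genes, with two-sided exact permutation p-values adjusted over the 28. Insig2 had Pearson r = 0.946 (exact p = 0.00298, adjusted p = 0.0417) and Spearman rho = 1 (exact p = 0.000397, adjusted p = 0.00556). Sc5d had r = 0.915 (exact p = 0.000198, adjusted p = 0.00556) and rho = 1 (exact p = 0.000397, adjusted p = 0.00556). Fdft1 had r = 0.939 (exact p = 0.00476, adjusted p = 0.0444) and rho = 0.929 (exact p = 0.00675, adjusted p = 0.0472).

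Sqle ran the other way, with r = −0.899 (exact p = 0.0113, adjusted p = 0.07) and rho = −0.929 (exact p = 0.00675, adjusted p = 0.0472), and Srebf2 had r = −0.876 (exact p = 0.0125, adjusted p = 0.07) and rho = −0.75 (exact p = 0.0663, adjusted p = 0.265). Without TBI 3 and TBI 4, the libraries farthest from the median muscle sum, r was 0.858 for Insig2, 0.713 for Sc5d, 0.909 for Fdft1, −0.826 for Sqle and −0.71 for Srebf2. The other 23 genes had an adjusted p above 0.05 by both measures. Groups of 4 and 3 libraries are too small to give a correlation of their own, so no value within a group is given. When the mean of the muscle list entered the fit, Fdft1 was at −0.24, Stard4 at 0.31 and Soat1 at 0.49 on the log2 scale (edgeR adjusted p = 0.199, 0.174 and 0.205), and these 3 then had an unadjusted p under 0.05, as did 2789 of all genes. Sc5d was at 0.15 in the muscle fit (edgeR adjusted p = 0.558), beside 0.29 without the covariate. With the skeletal list instead, whose sums do not overlap between the groups, Fdft1 was at −1.28, Abcg1 at 1.66 and Soat1 at 1.55 (unadjusted p = 0.0494, 0.018 and 0.0437; edgeR adjusted p = 0.498 each). In that fit 1645 of 17144 genes had an unadjusted p under 0.05.

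**Figure D3:**
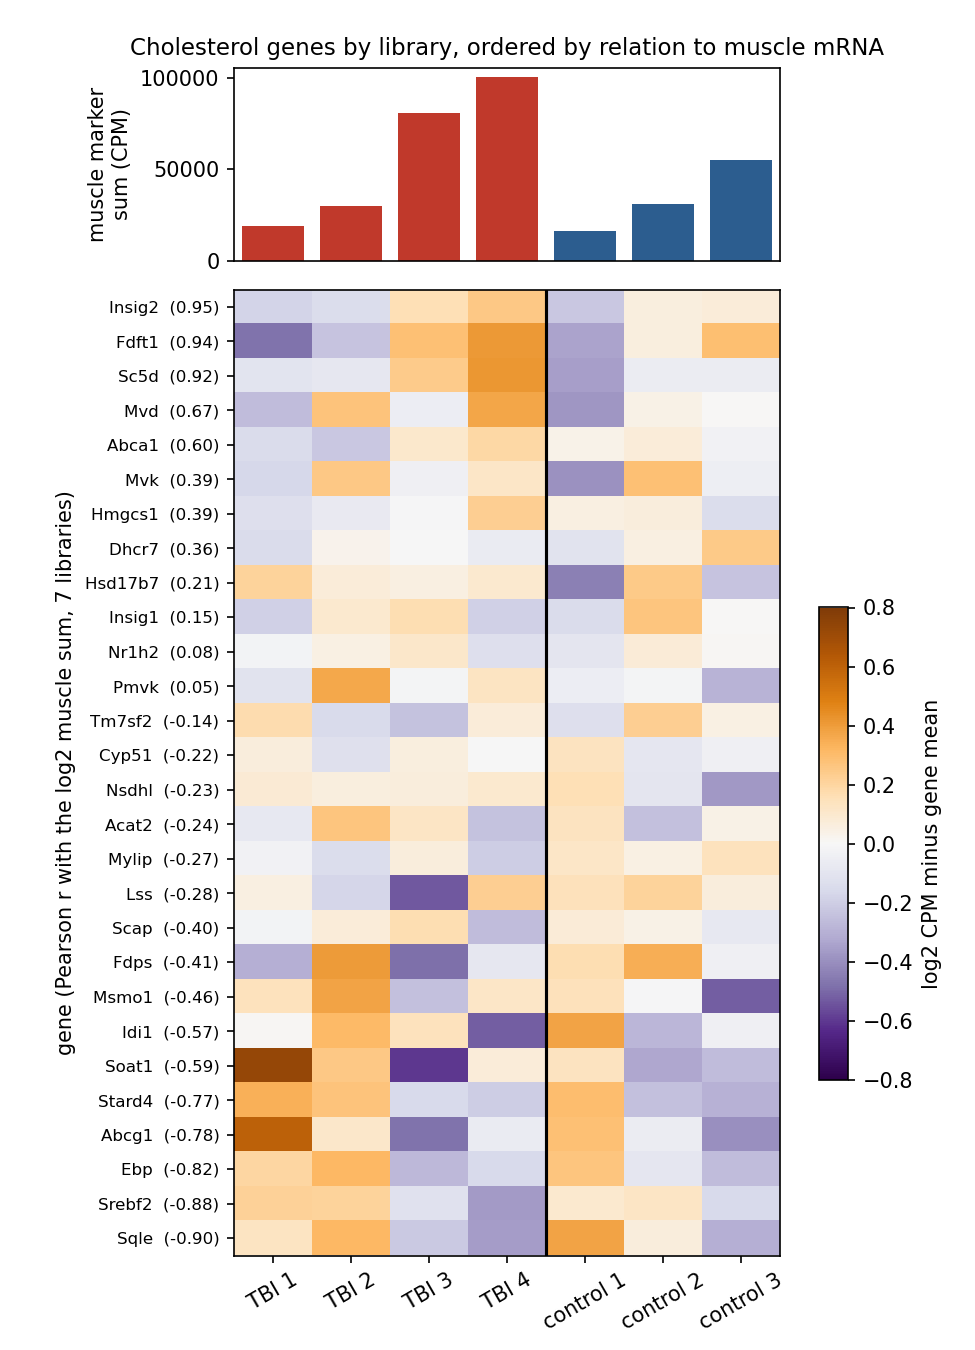
Muscle marker sum in CPM (bars) above the log2 CPM of each cholesterol gene minus its mean over the 7 libraries (colour), with genes ordered by their Pearson r with the log2 muscle sum, TBI libraries on the left and controls on the right. Insig2, Fdft1 and Sc5d at the top are high where the bars are high, and Sqle, Srebf2 and Ebp at the bottom are mostly low there.

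Beside the 28, the neighbouring lists of lipid genes were read in the same test, and 0 of their 46 genes passed over all genes tested in edgeR. Of the 46, 3 had an unadjusted p under 0.05 in edgeR, against 7.34% of all genes tested. DESeq2 called 1 (Lcat), against 0.568% of all genes. Lbr, a nuclear envelope protein with C14 reductase activity, stood at −0.09 ± 0.18 on the log2 scale (SE). On the non-sterol isoprenoid branch, 7 of 10 genes were higher and 3 lower, with a median of 0.071. Dhdds, for dolichol, stood at 0.20 ± 0.12, Rabggtb, a subunit that prenylates Rab proteins, at −0.18 ± 0.12, and Fnta, of farnesyltransferase, at 0.19 ± 0.15. Of 6 genes of SREBP processing, 4 were higher and 2 lower. Mbtps1, the protease that makes the first cut of SREBP, had 97.7, 90.7, 99.2 and 93.9 CPM in TBI 1 to 4, against 106.6, 118.9 and 109.8 CPM in controls 1 to 3. All its TBI libraries lay below all controls, as for 5.38% of the genes tested, by −0.23 ± 0.10 on the log2 scale (SE; unadjusted p = 0.0537; edgeR adjusted p = 0.683). Mbtps2, the second protease, stood at 0.28 ± 0.16.

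The sterol handling list held the lone gene called, and by DESeq2 only. On simulated counts DESeq2 made 36 false calls with 17140 genes tested, and edgeR 4 with 16779. Of the genes changed 2-fold there, DESeq2 called 37 of 67 and edgeR 17 of 66. At 1.5-fold these were 11 of 67 and 0 of 65, and at 4-fold 64 of 66 and 57 of 65. Lcat, which esterifies cholesterol on plasma lipoproteins and is made mainly by the liver (ENSMUSG00000035237), had 4.52, 4.64, 4.12 and 4.85 CPM in TBI 1 to 4, against 9.25, 6.24 and 10.1 CPM in controls 1 to 3. Every TBI library lay below every control, as for 5.38% of the genes tested. The log2 fold change was −0.91 ± 0.20 (SE), with an unadjusted p of 0.00159 and an adjusted p of 0.423 in edgeR and an adjusted p of 0.025 in DESeq2. Over its alternatives, edgeR and limma-voom gave Lcat adjusted p-values from 0.0708 to 0.987. The bone and cartilage marker sum separated the groups in the same direction. Among the 3 controls, that sum was highest in control 2 (18343 CPM) and lowest in control 3 (11369 CPM). Lcat was lowest in control 2 and highest in control 3. With the skeletal list as a covariate Lcat was at −1.54 on the log2 scale (edgeR adjusted p = 0.498). That covariate differs between the groups without overlap, so the part of bone and cartilage RNA in the Lcat value was not tested. Nceh1, which splits stored cholesterol esters, had 23.7, 19.3, 24.02 and 31.3 CPM in TBI 1 to 4, against 16.2, 17.1 and 17.7 CPM in controls 1 to 3. Every TBI library was above every control, as for 2.66% of the genes tested, at 0.53 ± 0.17 on the log2 scale (SE; unadjusted p = 0.0128; edgeR adjusted p = 0.561). Arl4c, a liver X receptor target, stood at −0.42 ± 0.24. In all, 8 of the 16 genes were higher and 8 lower, with a median of 0.022.

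The fatty acid arm, which the sister factor SREBP-1 drives, had 1 library that stood apart. Of its 12 genes, 9 had a higher and 3 a lower estimate (median 0.36 on the log2 scale), and none passed. Fasn, fatty acid synthase, had 79.3, 104.6, 447.4 and 94.1 CPM in TBI 1 to 4, against 72.1, 85.5 and 84.5 CPM in controls 1 to 3. Scd1, the desaturase that makes oleate, had 149.3, 170.7, 702.7 and 206.3 CPM in TBI 1 to 4, against 134.6, 136.2 and 224.2 CPM in controls 1 to 3. In both genes TBI 3 stood far above the other 6 libraries. Acaca, which makes malonyl-CoA, had 32.7, 34.9, 73.9 and 32.8 CPM in TBI 1 to 4, against 25.7, 29.1 and 30.03 CPM in controls 1 to 3, and Elovl6, an elongase, was at 24.7 CPM in TBI 3 and 9.27 to 12.2 CPM in the other 6 libraries.

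The log2 fold change was 1.17 ± 0.60 for Fasn, 0.90 ± 0.55 for Scd1, 0.62 ± 0.30 for Acaca and 0.48 ± 0.34 for Elovl6 (SE; edgeR adjusted p = 0.722, 0.76, 0.707 and 0.763). Without TBI 3 these were 0.20, 0.0884, 0.24 and 0.0461. Srebf1, which encodes SREBP-1, had 108.6 CPM in TBI 3, 59.8 to 85.2 CPM in the other TBI libraries and 67.0 to 75.7 CPM in controls. Me1, malic enzyme, a source of NADPH for lipid synthesis, had 45.4, 62.0, 192.0 and 173.5 CPM in TBI 1 to 4, against 38.1, 66.8 and 100.8 CPM in controls 1 to 3, so TBI 3 and TBI 4 both stood above the controls. Its log2 fold change was 0.79 ± 0.54 (SE), 0.095 with the muscle covariate and 0.45 without TBI 3. Scd1, Elovl6, Srebf1 and Me1 were added to the named genes with their values known. The 18 cholesterol synthesis enzymes in TBI 3 lay between −0.68 and 0.40 on the log2 scale from their control means. Adipocyte markers summed to 855.1 CPM in TBI 3 and 744.8 CPM in TBI 4, and their part in the fatty acid genes was not tested. Fads1, a desaturase of polyunsaturated fatty acids, was lower in all TBI libraries, as were 5.38% of the genes tested. It was at 48.0 to 63.4 CPM against 64.8 to 74.8 CPM in controls (log2 fold change −0.30 ± 0.13, SE; unadjusted p = 0.0479; edgeR adjusted p = 0.677).

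**Figure D4:**
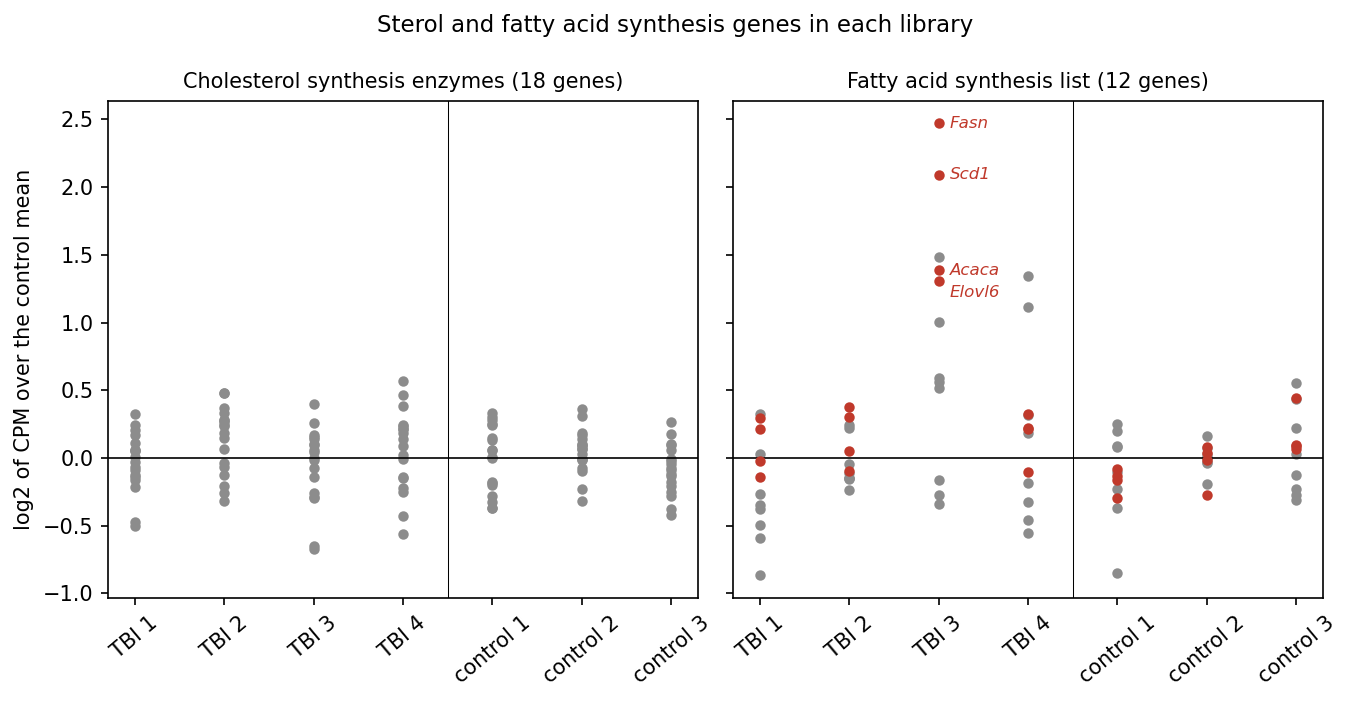
Log2 of the CPM in each library over the gene's control mean, for the 18 cholesterol synthesis enzymes (left) and the 12 genes of the fatty acid synthesis list (right), 1 point per gene. The sterol enzymes stay between −0.68 and 0.57 in every library, while Fasn, Scd1, Acaca and Elovl6 (red) are highest in TBI 3, with Fasn at 2.47, and Me1 (grey) is high in TBI 3 and TBI 4.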

How the data were processed

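Messenger RNA of whole mouse femurs was measured in 4 TBI and 3 control libraries, prepared, per the labels' protocols, with a kit for stranded mRNA. The authors deposited raw counts per Ensembl gene, the values used for every result here. A second deposited table of normalized values was not used here. STAR, DESeq and GRCm38 are named in the submitters' processing notes; how reads were counted, with or without strand, and what became of multi-mapping reads is not stated in the sources used. GENCODE M21 (GRCm38) gave symbols for 99.5% of 49671 identifiers and for all 28 genes.

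Counts were filtered with filterByExpr (17144 genes left), scaled by TMM and tested with edgeR 4.0.16 (glmQLFit and glmQLFTest, R 4.3.3), with Benjamini-Hochberg adjustment over all genes and 0.05 as the threshold. Each fold change is TBI over control; standard errors come from the estimate and its F statistic. Levels per kilobase use the union of annotated exons. DESeq2 1.42.0 (no adjusted p for genes it filters) and limma-voom (limma 3.58.1) were alternatives, as were other scalings and filters, a replicate block, muscle and skeletal covariates and leaving out each library. The procedure was tested on simulated counts.

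The genes, lists and roles were chosen with earlier results of these data known. All 28 genes are given; values per library are given for the 10 with the smallest unadjusted p, for Srebf2, Insig1, Hmgcs1, Sqle, Abca1 and Abcg1, and for Fdps, added after its values were seen. Of each neighbouring list the 3 genes with the smallest unadjusted p are named, except some genes that are not reported here. Whether same-numbered libraries pair is not known: the correlation of their deviations from group means was 0.549, −0.0277 and 0.322 for numbers 1 to 3. The value for number 1 was the highest of any TBI library with any control. Within groups, every pair of libraries had a chi-square per degree of freedom of 27.2 or more, so none was the same library deposited again; whether 2 came from 1 mouse is not shown by this.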

Additional observations from a re-analysis of the deposited data

Results flagged for a closer look

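Of the 60 sets of 4 TBI values checked, 4 held a library far from the other 3 by Dixon's test. The chance rate of about 1 set in 20 cannot be set against this count. Scd1, Elovl6, Srebf1 and Me1 were added with their values known, and all sets share the same 4 libraries. In 3 of them TBI 3 was highest: Acaca at 73.9 CPM, Fasn at 447.4 CPM and Scd1 at 702.7 CPM. The gap to the next TBI library was 0.948, 0.931 and 0.897 of the range, above the critical value of 0.829. In the other set TBI 4 was lowest, with an osteoblast marker sum of 5866 CPM (gap 0.839 of the range). None of the 28 cholesterol genes and none of their role means was among the 4.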

How the results depend on the processing

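At a depth of 15461528 to 21783534 counts a library, Fdps had as few as 17 counts, and its precision was the most limited. The count of cholesterol genes called stayed at 0 in every setting run, including each library left out and an adjusted p of 0.1. Over all genes it was 0 except in DESeq2, with 84 (7 higher, 77 lower; 1445 at an unadjusted p under 0.05; in edgeR 1259, 1909 with the replicate block and 2789 with the muscle covariate), and over the neighbouring lists it was 0 except in DESeq2, with 1 (Lcat, −0.91). The settings for the neighbouring lists were applied after the data were seen. The median of the squalene-to-sterol genes, 0.014, was 0.1 with the muscle covariate and 0.397 with the skeletal covariate, and ran from −0.0197 to 0.0865 (without control 1) with single libraries left out. The other 3 role medians moved by less than the spread between libraries in every setting, within −0.0101 to 0.105 (mevalonate), −0.0616 to 0.0593 (regulators) and −0.0324 to 0.0479 (efflux) with single libraries left out. The median of all genes tested lay between −0.0148 (upper-quartile scaling) and 0.0587 (skeletal covariate).

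Signs turned in the following fits, always short of an adjusted p of 0.05, and the cause was not tested. With upper-quartile scaling Hmgcs1 was −0.0273, Fdft1 −0.0282 and Nr1h2 −0.0352. Fdft1 was −0.00883 in limma-voom, Cyp51 0.00188 with RLE scaling and 0.000138 in DESeq2, and Nr1h2 −0.00062 with no filter. With the replicate number as a block, 0 cholesterol genes were called, though whether the numbers pair the libraries is not known. Number 4 exists only in TBI, so TBI 4 adds nothing to the group difference in the block fit. Its values lay near those without TBI 4, such as −0.133 for Fdft1 and 0.0862 for Srebf2. In the block fit Hmgcs1 was −0.0635, Idi1 0.126, Fdft1 −0.144, Sqle 0.0265, Cyp51 0.000534, Srebf2 0.0833, Scap 0.0579 and Insig2 −0.0234. Among controls, TBI 2 correlated best with control 1 (0.272). With the muscle covariate Hmgcs1 was −0.0259, Idi1 0.0893, Fdft1 −0.237, Sqle 0.1, Cyp51 0.0132, Srebf2 0.095, Scap 0.0162, Insig2 −0.0604 and Lbr 0.0271. The skeletal covariate separates the groups by itself, so group and covariate can hardly be told apart: Acat2 was −0.306, Hmgcs1 −0.0192, Mvd −0.268, Fdps 0.174, Fdft1 −1.28, Sqle 0.86, Lss 0.219, Cyp51 0.0264, Tm7sf2 0.397, Sc5d −0.254, Srebf2 0.778, Scap 0.0772, Insig2 −0.436, Lbr 0.442, Srebf1 −0.613, Acaca −0.481, Fasn −1.47, Scd1 −2.17, Elovl6 −0.426, Me1 −2.46, Fnta −0.62 and Arl4c 0.696. With single libraries left out, the values ran from −0.0582 to 0.124 for Acat2, −0.0644 to 0.0566 for Hmgcs1, −0.0769 to 0.259 for Mvk, −0.162 to 0.17 for Idi1, −0.14 to 0.169 for Fdft1, −0.239 to 0.101 for Sqle, −0.0465 to 0.0673 for Cyp51, −0.168 to 0.00875 for Tm7sf2, −0.0603 to 0.216 for Ebp, −0.104 to 0.0862 for Srebf2, −0.078 to 0.0593 for Scap, −0.161 to 0.0484 for Insig1, −0.0313 to 0.119 for Insig2, −0.109 to 0.0195 for Abca1, −0.0953 to 0.313 for Abcg1, −0.0398 to 0.0479 for Nr1h2 and −0.213 to 0.0741 for Lbr.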

Other observations

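The library with the highest and the library with the lowest level were spread over both groups. Of the 28 cholesterol genes, 7 were highest in TBI 4, 5 in TBI 2, 4 in TBI 1 and 2 in TBI 3, against 4 each in controls 1 and 2 and 2 in control 3. The lowest library was TBI 4 for 7 genes, TBI 3 for 6, TBI 1 and TBI 2 for 2 each, controls 1 and 3 for 5 each and control 2 for 1. The log2 fold change farthest from 0, in absolute value, among the 28 was 0.32, and 70.6% of all genes tested stood at or under that value.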
